A study of Mus musculus with 2 samples.

Results

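The endoplasmic reticulum (ER) folds, checks and ships the proteins that a cell secretes, and the 10 genes described here encode part of that machinery. They were taken by symbol from a feature table of 31053 genes and not by their measured values. They comprise the chaperones Hspa5, Hsp90b1 and Calr with the co-chaperone Sdf2l1, the disulfide isomerases Pdia4 and Pdia6, the transcription factor Xbp1, the degradation proteins Herpud1 and Sel1l, and the secreted protein Manf. All 10 were in the table and had counts in both libraries of the series. Their counts were compared between cell types, with acinar-like cells and plasma-type B cells set against the rest, and then between the libraries.

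Proteins enter the ER unfolded, and Hspa5 (also called BiP) binds their exposed stretches while calreticulin binds those that carry sugar chains. When unfolded clients build up, the sensors Ern1, Atf6 and Eif2ak3 start the unfolded protein response: Ern1 splices Xbp1 mRNA into the form that encodes the active factor, and Atf6 and Xbp1 raise chaperone and degradation genes. Pancreatic acinar cells and plasma cells export protein on a large scale, digestive enzymes in one case and antibody in the other, and in mice both need Xbp1 to build their secretory apparatus.

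Several of these genes are textbook targets of that response through the ER stress response element (ERSE), which Atf6 binds together with NF-Y. The stretches that hold such a motif in the 250 bases before the start of 9 members (RefSeq, GRCm38.p6; Manf had no entry) are printed here because they show which members share an element with a known link to this response. The motifs were searched on both strands as CCAAT and CCACG with 9 bases of any kind between them (ERSE), ATTGG and CCACG with 1 base between them (ERSE-II) and TGACGTG (the core of the unfolded protein response element). Each stretch reads 5′ to 3′ on the strand named, with the motif in capitals.
Hspa5, ERSE, chr2:34772020-34772048, plus strand: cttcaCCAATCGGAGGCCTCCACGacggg
Hsp90b1, ERSE farther from the start, chr10:86705633-86705661, minus strand: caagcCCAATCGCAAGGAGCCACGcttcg
Hsp90b1, ERSE nearer to the start, chr10:86705528-86705556, plus strand: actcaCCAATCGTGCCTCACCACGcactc
Calr, ERSE, chr8:84847070-84847098, plus strand: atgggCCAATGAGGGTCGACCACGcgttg
Pdia6, ERSE, chr12:17266486-17266514, plus strand: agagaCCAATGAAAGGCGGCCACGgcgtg
Herpud1, ERSE-II, chr8:94386372-94386392, plus strand: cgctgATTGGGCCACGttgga
Hspa5, unfolded protein response element core, chr2:34771928-34771944, plus strand: agcaaTGACGTGagttg

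The ERSE was found before 4 of the 9 members, Hspa5, Hsp90b1, Calr and Pdia6, and before 0.113% of 32851 mouse promoters (37 of them). ERSE-II was found before Herpud1 and 0.0304% of promoters, and the TGACGTG core before Hspa5 and 1.65% of promoters. The shorter run CCACG, which is part of both ERSE forms, stood before 7 of 9 members, Sel1l and Sdf2l1 among them, and before 28.3% of promoters. These are matches of letters and no measurement of binding. Calr, Hsp90b1 and Sel1l lie on the minus strand of chromosomes 8, 10 and 12, and Hspa5, Pdia6 and Herpud1 on the plus strand of chromosomes 2, 12 and 8. The gene bodies of Hspa5 and Sel1l span chr2:34771970-34777547 and chr12:91806043-91849157 (GENCODE M21, GRCm38). The RefSeq start of Hspa5 used for the motifs lies inside that GENCODE span, and so does the Hspa5 ERSE printed above. Pdia6, Herpud1 and Manf overlap other counted genes (Atp6v1c2; Gm15890; Rbm15b, Dcaf1 and 4930524O07Rik), and whether the counting used strand is not given in the sources used here, so their levels are less certain.

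After pancreatitis, cells were taken from the pancreas of C57Bl/6J mice that carry the R26[CA]30EYFP reporter and were sorted into an EYFP+ and an EYFP- group, 1 single-cell library each. The treatment label is "None" in both, and the labels give the sort as the difference between the groups. A CA repeat keeps the reporter out of frame until its length changes, which is when EYFP is made. The sources used here do not give the number of animals per library or the time after pancreatitis, and the feature table has no EYFP transcript with which to check the sort.

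The EYFP+ library had 1717 barcodes and 4006807 unique molecular identifiers (UMIs, counted molecules), and the EYFP- library had 745 and 5295816. After filters 860 EYFP+ and 553 EYFP- cells remained, with medians of 1007.5 and 8020 UMIs, so EYFP+ values rest on much shallower cells. The libraries shared 4 barcodes, 2 of them in kept cells. Acinar marker RNA outside the acinar-like clusters also differed: digestive enzyme genes and their like took 0.689% of the UMIs of EYFP+ T-like cells and 0.00778% of those of EYFP- T-like cells. The genes Lars2 and Gm42418 together took 8.28% of kept EYFP+ UMIs, 28.1% in NK-like cells, and 0.343% of kept EYFP- UMIs. All levels below are counts per 1000000 UMIs (CPM) of the cells summed, not divided by transcript length. With 1 library a group there is no test, and the 95% intervals are exact and cover counting error only.

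Kept cells were named by marker lists. The EYFP+ library held 230 T-like, 222 ductal-like, 112 B-like, 87 acinar-like, 64 fibroblast-like, 58 endothelial-like, 32 NK-like and 27 macrophage-like cells. Another 26 cells formed an unnamed cluster led by Hbb-bs, Hba-a1 and Hba-a2 and then by Lyz2, Apoe and Cd74. Its leading genes thus held both erythroid and macrophage markers. The EYFP- library held 389 T-like and 104 B-like cells and fewer than 20 of every other class, with only 1 acinar-like cell. Plasma-type cells, cut by Jchain, numbered 1 in the EYFP+ library and 2 in the EYFP- library.

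The acinar-like class was made of 2 clusters. One, of 31 EYFP+ cells, was led by Pnliprp1, Pnlip and Cpa1, and acinar marker genes (Rbpjl not counted) took 52.2% of its UMIs. The other, of 56 EYFP+ cells, was led by Nupr1, Rbpjl, Sel1l and Rrbp1, and the same markers took 4.12%. That share was near the 3.14% and 3.01% of the low-UMI ductal-like and T-like clusters, so its enzyme UMIs alone did not set it apart. Rbpjl did: this acinar factor, a partner of Ptf1a, had 503 of the library's 568 Rbpjl UMIs there, against 29 in the enzyme-led cluster. Because Sel1l is a leading gene of the Rbpjl-led cluster, its level there is a description. With the ER genes left out before clustering, 55 of the 56 cells again formed this cluster.

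Among plasma-type cells and classes of at least 6 cells in a library, the 10 genes together were highest in 2 kinds of cell. They made up 6646 CPM (95% interval 6227–7085) in the Rbpjl-led acinar-like cells, 5638 CPM (4667–6752) in the single EYFP+ plasma-type cell and 5057 CPM (4583–5567) in the 2 EYFP- plasma-type cells. Fibroblast-like cells followed with 2965 CPM in the EYFP+ and 3251 CPM in the EYFP- library, then EYFP+ macrophage-like cells with 2878 CPM (2048 CPM without 1 cell that held 219 of their 549 UMIs) and the unnamed cluster with 2718 CPM. Ductal-like (1817 CPM), endothelial-like (1749.8 CPM) and B-like cells (1476 CPM) of the EYFP+ library formed a middle range. The enzyme-led acinar-like cells, with 1081 CPM (906–1279), stood near the NK-like (975 CPM) and T-like cells (853 CPM) of the same library. Neighbours in this order whose intervals overlap, such as the plasma-type cells of the 2 libraries, cannot be ranked. The order is that of CPM over all UMIs. Immunoglobulin genes and Jchain took 64.4% to 75.7% of plasma-type UMIs, and acinar markers most enzyme-led UMIs, which lowers the CPM of other genes. Plasma-type and acinar-like levels are therefore not ranked against each other, and neither is the enzyme-led level against NK-like or T-like cells.

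**Figure D1:**
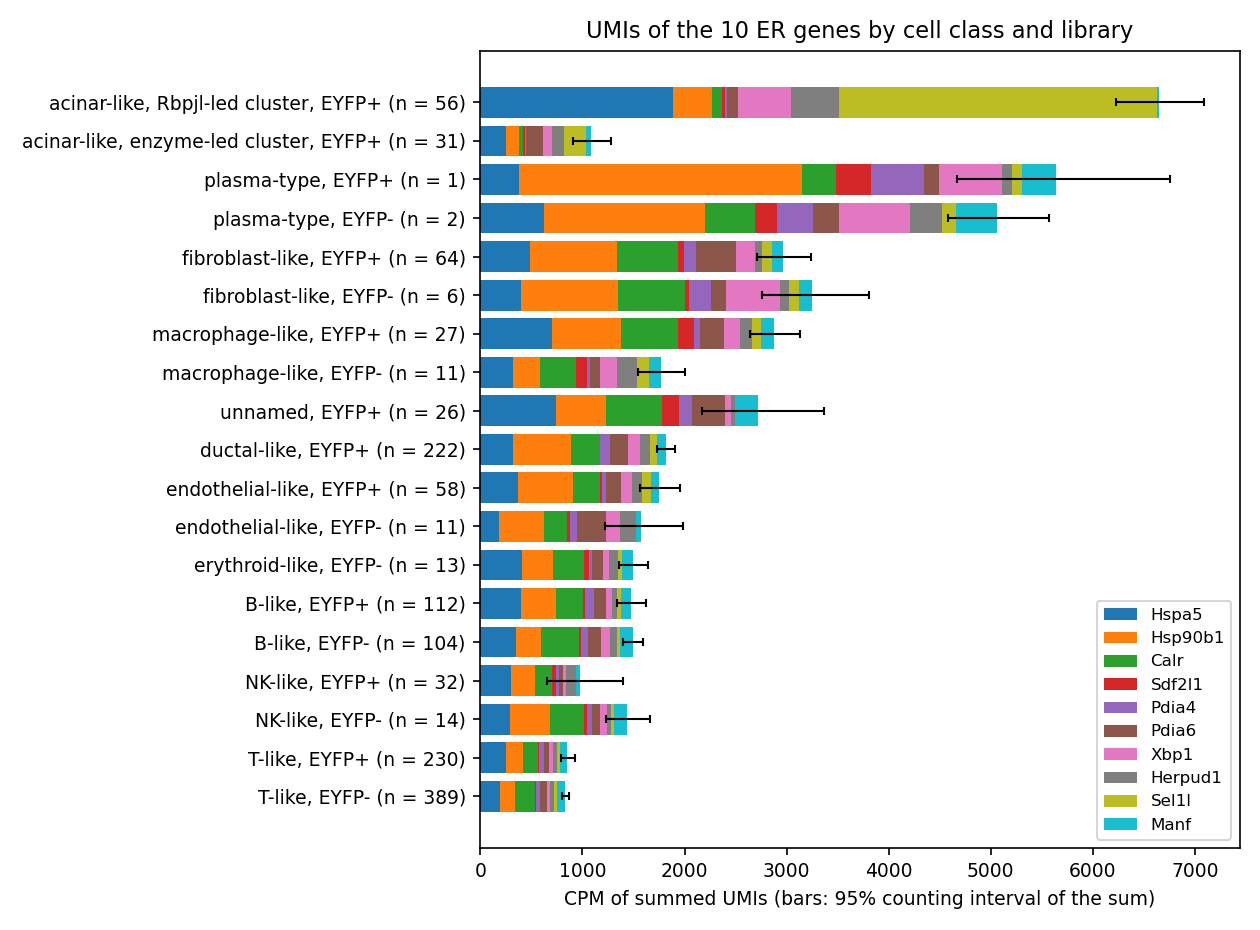
Stacked bars give the CPM of each of the 10 genes in each cell class, EYFP+ and EYFP- libraries apart, with the exact 95% interval of the sum. Rbpjl-led acinar-like cells reach 6646 CPM, most of it Sel1l and Hspa5, whereas Hsp90b1 takes the largest share of the EYFP+ plasma-type cell (5638 CPM).

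In the EYFP+ library the 10 genes together had 1074 UMIs (4035 CPM) in the 87 acinar-like cells, against 4173 UMIs (1683 CPM) in the other 773 cells, a ratio of 2.40 (2.24–2.56). They did not go one way. Sel1l, Herpud1, Xbp1 and Hspa5 were at least 2-fold higher in acinar-like cells, 4 of 10 members beside 8.97% of the 11858 genes measured. Calr, Pdia4 and Manf were at least 2-fold lower, 3 of 10 beside 39.5% of genes, below the background share. Of the markers of other cells, 0 of 11 T, 0 of 10 B and 0 of 10 macrophage genes were at least 2-fold higher in acinar-like cells, but 3 of 10 endocrine genes (Ins1, Ins2 and Sst), 1 of 15 ductal genes (Tff2) and 4 of 4 erythroid genes were. The erythroid genes took 0.0177% of Rbpjl-led and 1.12% of enzyme-led UMIs. Without Sel1l and Hspa5 the ratio was 0.921. Without the Rbpjl-led cluster the ratio was 0.642 and Sel1l alone stayed at least 2-fold higher, and for cells with at least 5% acinar secretory UMIs the ratio was 0.708. These values count all UMIs, much of them enzyme RNA. Without the Rbpjl-led cluster and outside acinar secretory, mitochondrial and ribosomal genes the ratio was 1.42 (1.19–1.69), and 4 members were at least 2-fold higher.

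Among the chaperones, Hspa5 had 297 UMIs (1116 CPM) in acinar-like cells, against 884 UMIs (357 CPM) in the other EYFP+ cells, a ratio of 3.13 (2.73–3.57). Hsp90b1, the ER's Hsp90, went the other way with 71 UMIs (267 CPM) in acinar-like cells, against 1156 (466 CPM) in the others, a ratio of 0.572 (0.444–0.727). That direction turned to 1.11 as a mean over cells and to 1.21 with each cell thinned to 500 UMIs. Calr was lower still, with 19 UMIs (71.4 CPM) in acinar-like cells and 701 (283 CPM) in the others, a ratio of 0.252 (0.151–0.397). The main ER chaperones were therefore not raised as a block. Sdf2l1, which works with Hspa5, had too few counts to place, 7 UMIs in acinar-like cells and 78 in the others, with a ratio of 0.836 (0.325–1.81).

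On totals of all UMIs the isomerases, which form and reshuffle disulfide bonds, were not higher in acinar-like cells. Pdia6 had 36 UMIs (135 CPM) in acinar-like cells, against 373 (150.5 CPM) in the others, a ratio of 0.899 (0.620–1.27). No difference could be seen on these totals at this depth. In enzyme-led cells alone Pdia6 was 168 CPM, in totals that are mostly enzyme RNA, which lowers it. Outside acinar secretory, mitochondrial and ribosomal protein genes neither isomerase was at least 2-fold higher over the whole acinar-like class. Pdia4 had 4 UMIs (15.03 CPM) in acinar-like cells, against 188 (75.8 CPM) in the others, a ratio of 0.198 (0.0534–0.516). Manf, which is kept in the ER by Hspa5 and secreted under stress, had 9 UMIs (33.8 CPM) in acinar-like cells, against 231 (93.2 CPM) in the others, a ratio of 0.363 (0.164–0.701).

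The factor and the degradation genes were higher. Xbp1 had 84 UMIs (316 CPM) in acinar-like cells, against 240 (96.8 CPM) in the others, a ratio of 3.26 (2.51–4.196). Herpud1, which holds the degradation complex together at the membrane, had 81 UMIs (304 CPM) in acinar-like cells, against 179 (72.2 CPM) in the others, a ratio of 4.22 (3.20–5.51). Sel1l, the partner of the ubiquitin ligase Syvn1, had 466 UMIs (1751 CPM) in acinar-like cells, against 143 (57.7 CPM) in the others, a ratio of 30.4 (25.1–36.9). Acinar-like cells thus held 76.5% of the library's 609 Sel1l UMIs and 9.70% of all its UMIs. At least 2 Sel1l UMIs were seen in 48 of 87 acinar-like cells and in 28 of 773 others.

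Most of this came from the Rbpjl-led cells. Sel1l had 439 UMIs (3107 CPM, 2823–3412) in the Rbpjl-led cluster, against 27 UMIs (216 CPM, 142–315) in the enzyme-led cluster, and 15 of those 27 were in 1 cell. Hspa5 had 266 UMIs (1883 CPM) in Rbpjl-led cells, against 31 (248 CPM) in enzyme-led cells, a ratio of 7.58 (5.22–11.4). The enzyme-led Hspa5 level was close to that of EYFP+ T-like cells (249 CPM), in cells whose UMIs were 52.2% acinar markers. In Rbpjl-led cells Xbp1 had 73 UMIs (517 CPM) and Herpud1 67 (474 CPM), against 11 (88.1 CPM) and 14 (112 CPM) in enzyme-led cells. Likewise Hsp90b1 had 55 UMIs (389 CPM) and Calr 14 (99.1 CPM) in Rbpjl-led cells, against 16 (128 CPM) and 5 (40.0 CPM) in enzyme-led cells. On these totals Hsp90b1 and Calr were below their fibroblast-like levels in both clusters. Pdia6, alone among the 7 members with at least 10 UMIs over both clusters, had the lower level in Rbpjl-led cells, with 15 UMIs (106 CPM) in the Rbpjl-led and 21 (168 CPM) in the enzyme-led cluster, a ratio of 0.631 (0.303–1.29).

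**Figure D2:**
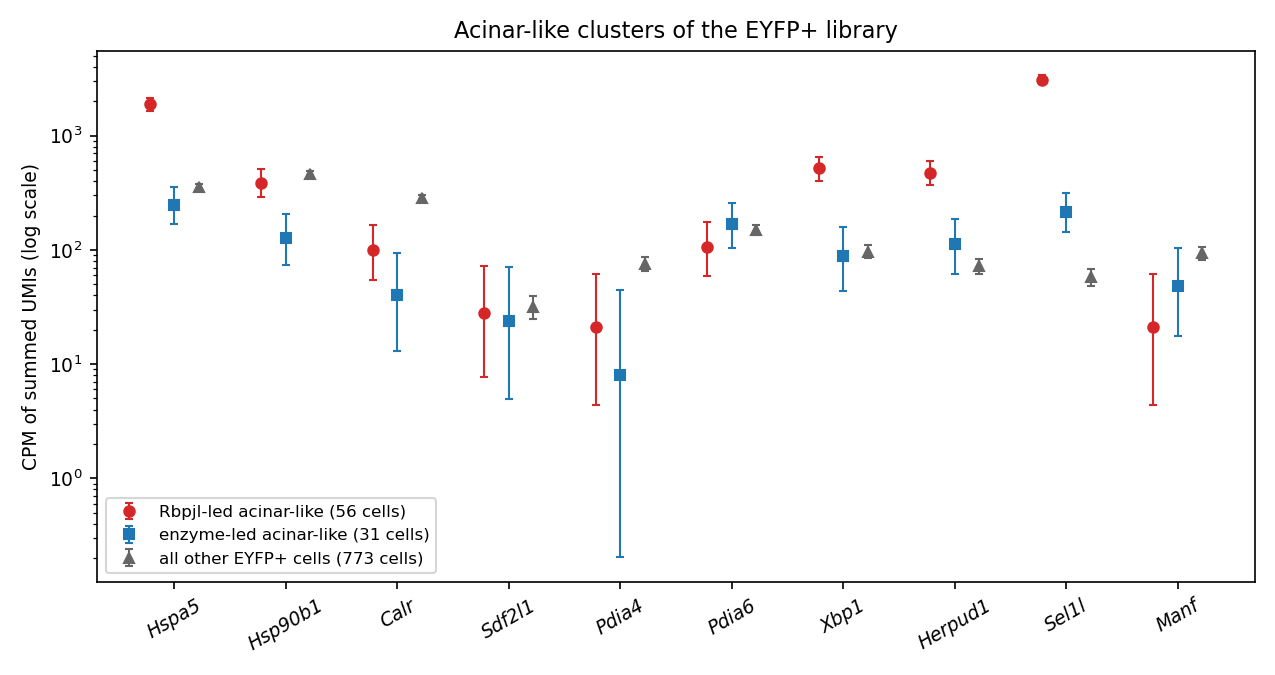
Points give the CPM (log axis) of each gene in Rbpjl-led acinar-like cells, enzyme-led acinar-like cells and all other EYFP+ cells, with exact 95% counting intervals. Sel1l stands at 3107 CPM in the Rbpjl-led cluster, against 216 CPM in the enzyme-led cluster, and Calr is below the level of the other cells (283 CPM) in both.

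Between the acinar-like clusters 6 of the 7 members with enough counts were at least 2-fold higher in the Rbpjl-led one, but so were 77.4% of 2427 genes, so this count is close to the background; 0 were lower, beside 9.15% of genes. The enzyme-led total is mostly enzyme RNA, which lowers the CPM of everything else. Outside acinar secretory, mitochondrial and ribosomal protein genes the sum's ratio was 2.60 in place of 6.15, and Sel1l, Hspa5 and Xbp1 remained at least 2-fold higher, 3 of 7 beside 50.3% of genes. Pdia6 was then at least 2-fold lower in the Rbpjl-led cells, beside 13.8% of genes. Other RNA moved with the same split: Malat1, a nuclear RNA, took 15.8% of Rbpjl-led and 0.158% of enzyme-led UMIs, and mitochondrial transcripts took 6.86% of Rbpjl-led and 3.003% of enzyme-led UMIs. Their part in the result was not tested.

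Within the Rbpjl-led cluster the high sum was spread over the cells. The 10 genes had a UMI in all 56 Rbpjl-led cells, with a median of 11 and a maximum of 62 UMIs, and per-cell levels of 1009 to 19443 CPM (median 5468). In the enzyme-led cluster 22 of 31 cells had any, with a median of 2, and 49 of its 135 UMIs were in 1 cell. Sel1l was seen in 55 of 56 Rbpjl-led cells, with a median of 4 UMIs, and in 8 of 31 enzyme-led cells. After each cell was thinned to 500 UMIs the shares were 73.2% (59.7–84.2) of Rbpjl-led and 6.45% (0.791–21.4) of enzyme-led cells, beside 2.17% of EYFP+ T-like cells. Hspa5, thinned likewise, was seen in 39.3% of Rbpjl-led, 9.68% of enzyme-led and 10.4% of EYFP+ T-like cells. Hspa5 was less even than Sel1l: 38 of 56 Rbpjl-led cells had it, and 1 had 34 of the 266 UMIs.

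The mix of the 10 genes also differed. Sel1l and Hspa5 made up 75.1% of the members' UMIs in Rbpjl-led cells and 43.0% in enzyme-led cells, against 21.2% in ductal-like and 32.6% in T-like cells of the EYFP+ library. Hsp90b1 made up 5.86% in Rbpjl-led and 11.9% in enzyme-led cells, against 31.5% in ductal-like cells. Calr was 1.49% in Rbpjl-led cells and 20.3% in EYFP+ fibroblast-like cells, which secrete collagen. The fibroblast-like and Rbpjl-led sums thus hold different members.

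Across the classes with at least 20 cells, each gene had its own order. Hspa5 was highest in Rbpjl-led cells (1883 CPM), followed by the unnamed cluster (744 CPM, 472–1117) and EYFP+ macrophage-like cells (697 CPM, 584–826), whose intervals overlap. Hsp90b1 was highest in fibroblast-like (849.8 CPM, 715–1002) and macrophage-like cells (681 CPM, 569–809), and lowest in the enzyme-led acinar-like cells (128 CPM) and EYFP- T-like cells (143 CPM). Of the 27 EYFP+ macrophage-like cells, 1 held 50 of the 130 Hsp90b1, 56 of the 133 Hspa5, 39 of the 106 Calr and 13 of the 31 Sdf2l1 UMIs. Without it the class had 497 CPM of Hsp90b1, under the ductal-like (572 CPM) and endothelial-like cells (538 CPM), 478 CPM of Hspa5, 416 CPM of Calr and 112 CPM of Sdf2l1. Calr was highest in fibroblast-like (603 CPM), macrophage-like (556 CPM) and unnamed cells (550.2 CPM), which could not be ranked, and lowest in both acinar-like clusters. Pdia4 led in the unnamed cluster (129 CPM, 4 UMIs) and fibroblast-like cells (121 CPM), and Pdia6 in fibroblast-like cells (392 CPM, 302–499).

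Sdf2l1 was highest in EYFP+ macrophage-like cells (163 CPM, 31 UMIs; 112 CPM without the cell named above) and the unnamed cluster (162 CPM, 5 UMIs), and was 8.33 CPM in EYFP+ T-like cells. Xbp1 led in Rbpjl-led cells (517 CPM, 405–650), followed by fibroblast-like (181 CPM, 122–258) and macrophage-like cells (152 CPM, 102–218; 130.4 CPM without that cell), and was lowest in EYFP- T-like cells (28.6 CPM). Herpud1 likewise led in Rbpjl-led cells (474 CPM, 367–602), above macrophage-like (121 CPM) and enzyme-led cells (112 CPM), which overlap. Below the Rbpjl-led cluster, Sel1l was 216 CPM in the enzyme-led cluster, 96.4 CPM in fibroblast-like, 89.1 CPM in macrophage-like, 87.0 CPM in endothelial-like and 68.3 CPM in ductal-like cells; from fibroblast-like to ductal-like cells the intervals overlap. No Sel1l UMI was seen in 32 NK-like EYFP+ cells, where 3 UMIs would be 101 CPM, so its absence there is not shown. Manf ran from 21.2 CPM (3 UMIs) in Rbpjl-led cells to 227 CPM (7 UMIs) in the unnamed cluster.

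The other genes of the pathway were read by lists. Of 10 measured sensors and factors of the unfolded protein response, 4 were at least 2-fold higher in acinar-like cells and 0 lower, beside 8.97% and 39.5% of all genes measured, with a median log2 ratio of 0.08 beside −0.59 for all genes measured (genes at 0 UMIs in a sum were set to 3 UMIs). Summed, the list had 1125 CPM in Rbpjl-led and 192 CPM in enzyme-led cells, against 388 CPM in the other EYFP+ cells. The enzyme-led total is mostly enzyme RNA. Between the acinar-like clusters 6 of 6 measured were at least 2-fold higher in the Rbpjl-led one, beside 77.4% of genes. Outside acinar secretory, mitochondrial and ribosomal protein genes 3 of 6 were, beside 50.3%. Bhlha15 (Mist1), a factor of secretory cells, had 31 UMIs in acinar-like cells and 1 in the others. Atf6 had 32 UMIs (120.2 CPM) in acinar-like cells, against 85 (34.3 CPM) in the others, a ratio of 3.51 (2.26–5.32), Eif2ak3 a ratio of 6.88 (4.29–10.96) and Ern1 one of 3.66 (1.64–7.58). Atf4 and Ddit3, whose protein is made mainly when translation is slowed, had ratios of 1.06 (0.700–1.55) and 1.05 (0.406–2.30). Bhlha15, Eif2ak3 and Ern1 were picked for the text after their values were seen, as were Asns, Slc7a11, Derl3, Edem1, Fkbp11, Ero1lb, Txndc11, Creld2 and Sec61a1 below.

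Targets of the Eif2ak3 and Atf4 arm had the highest list median, a log2 ratio of 1.61, with 6 of 9 at least 2-fold higher and 1 lower, beside the same 8.97% and 39.5%. Summed, this list had 12060 CPM in Rbpjl-led and 1818 CPM in enzyme-led cells, against 474 CPM in the other EYFP+ cells. Over the acinar-like class most of that sum was Nupr1, a leading gene of the Rbpjl-led cluster. The sum therefore does not stand for the list as a whole. Between those clusters 5 of 7 measured were at least 2-fold higher in the Rbpjl-led one, beside 77.4% of genes. Outside acinar secretory, mitochondrial and ribosomal protein genes 5 of 7 were, beside 50.3%. Nupr1, a stress protein of the injured pancreas and the leading gene of the Rbpjl-led cluster, had 1763 UMIs in acinar-like cells and 354 in the others, a ratio of 46.4 (41.4–52.1). Asns, which makes asparagine, had 32 UMIs in acinar-like cells and 13 in the others, a ratio of 22.9 (11.7–47.6), and the cystine carrier gene Slc7a11 had 27 in acinar-like cells and 19 in the others, a ratio of 13.2 (7.09–25.2). Ppp1r15a, the most abundant of the list after Nupr1, had a ratio of 0.865 (0.618–1.18), and Cebpb one of 0.268 (0.0720–0.702).

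The remaining lists were mixed in acinar-like cells. Of 18 degradation genes 5 were at least 2-fold higher and 5 lower; Derl3 had 31 UMIs in acinar-like cells and 4 in the others, and the mannosidase-like Edem1 had 81 in acinar-like cells and 114 in the others, a ratio of 6.62 (4.91–8.88), while Selenok and Vcp had ratios of 0.209 and 0.497. Of 16 genes on the isomerase list, not all of them isomerases, 3 were higher and 6 lower. Fkbp11 (13.4), Ero1lb (12.8) and Txndc11 (12.4) were the higher ones, and the ratio was 0.198 for Pdia3 and 0.622 for Ppib, the most abundant of the list. Of 13 other chaperones and lectins 1 was higher, Creld2, and 6 lower, among them Canx, the membrane partner of calreticulin (0.349). Of 24 translocation, signal peptidase and glycosylation genes 1 was higher, Sec61a1 (2.98), and 11 lower, and of 19 genes of transport between ER and Golgi 2 were higher and 5 lower. Of 10 cytosolic heat shock genes, set beside for contrast, 1 was higher and 2 lower. Among all genes measured 8.97% were at least 2-fold higher and 39.5% lower, so the translocation counts lie near or under those shares. Outside acinar secretory, mitochondrial and ribosomal protein genes 6 degradation genes were higher and 2 lower, 5 genes of the isomerase list higher and 3 lower, and 2 translocation genes higher and 8 lower, beside 12.9% and 31.1% of all genes.

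**Figure D3:**
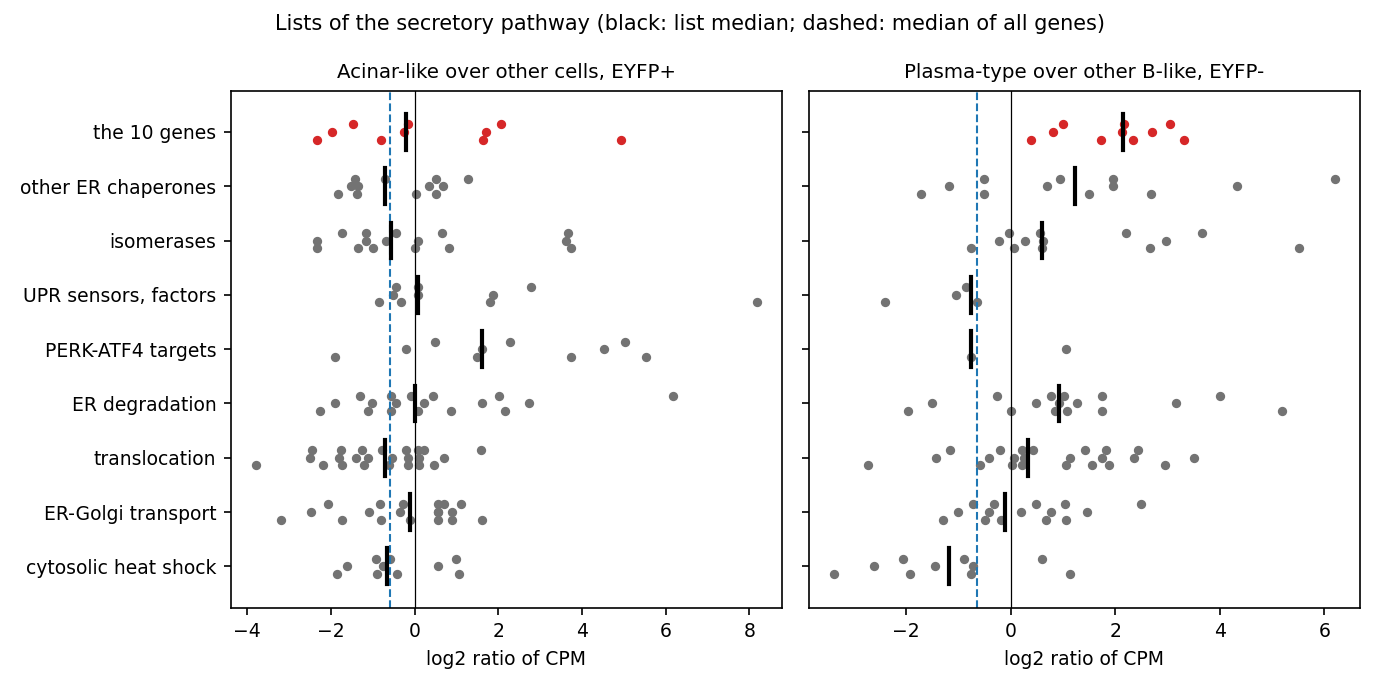
Each point is the log2 ratio of a gene of the pathway lists, acinar-like over other EYFP+ cells on the left and plasma-type over other B-like EYFP- cells on the right; black bars are list medians, the dashed line is the median of all genes measured, and genes at 0 UMIs in either sum are not drawn. The targets of the Eif2ak3 and Atf4 arm have the highest list median on the left (1.61), and the 10 members on the right (2.14).

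Plasma-type cells were cut by Jchain, the joining chain of secreted antibody, at no fewer than 5 UMIs and 0.2% of a B-like cell's UMIs. The EYFP+ cell had 1283 Jchain UMIs (6.13% of 20929), and the EYFP- cells had 1666 (4.42% of 37662) and 3273 (7.34% of 44602). The next B-like cell had 2. Left out were 4 erythroid-like EYFP- cells, whose highest count was 40 and whose highest share, in another cell, was 0.0838%. Immunoglobulin genes and Jchain took 64.4% of the UMIs of the EYFP+ cell, and 75.2% and 75.7% of those of the EYFP- cells. Each of the 3 cells used Igkc, with Ighm in the EYFP+ cell (8.23%) and in the second EYFP- cell (20.8%) and Ighg2b in the first EYFP- cell (18.1%). The B cell factor Pax5 was at 0 UMIs in all 3. The B cell gene Cd79a had 20 UMIs in the EYFP+ cell and 11 and 23 in the first and second EYFP- cells. In the same order the plasma cell markers Sdc1 had 3, 2 and 8 UMIs, Tnfrsf17 4, 0 and 2, Prdm1 2, 0 and 2 and Mzb1 53, 63 and 37. Both EYFP- cells, but not the EYFP+ one, were among the 5 EYFP- cells that the doublet caller Scrublet marked. They held 5 UMIs of T markers, 0 of macrophage markers and 4 of erythroid markers together.

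The 10 genes had 416 UMIs (5057 CPM) in the 2 EYFP- plasma-type cells, against 948 UMIs (1492 CPM) in the 104 other EYFP- B-like cells, a ratio of 3.39 (3.01–3.81). All 10 ratios were above 1, and 8 of 10 were at least 2-fold higher, beside 2.77% of the 6183 genes measured; 0 were lower, beside 39.9% of genes. Calr, at 1.32 (0.916–1.85), and Hspa5, at 1.76 (1.27–2.39), were the exceptions. With immunoglobulin genes and Jchain left out of the totals the ratio of the sum was 13.6 and all 10 were at least 2-fold higher, beside 22.8% of genes, and 0 lower, beside 5.56%; Hspa5 was then at 7.06 and Calr at 5.28.

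Hsp90b1 carried the most UMIs in these cells, 130 (1580 CPM, 1320–1876), against 155 (244 CPM) in the other B-like cells, a ratio of 6.48 (5.09–8.23). Sdf2l1 had 18 UMIs (219 CPM) in plasma-type cells, against 14 (22.0 CPM) in the others, a ratio of 9.93 (4.67–21.6). Xbp1 had 57 UMIs (693 CPM) in plasma-type cells, against 53 (83.4 CPM) in the others, a ratio of 8.31 (5.61–12.3). These were the highest ratios, a chaperone partner of Hspa5 and the factor that plasma cells need. Pdia4 (ratio 5.09, 29 UMIs in the plasma-type cells), Sel1l (4.47, 11 UMIs), Herpud1 (4.37, 26 UMIs) and Manf (3.31, 33 UMIs) followed. Pdia6, at 21 UMIs in plasma-type and 81 in the other B-like cells, had a ratio of 2.00 (1.18–3.27), which was 0.635 without the second plasma-type cell and the B-like cell with the most member UMIs.

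Cell by cell, the EYFP+ plasma-type cell had 58 Hsp90b1, 13 Xbp1, 11 Pdia4, 8 Hspa5, 7 each of Calr, Sdf2l1 and Manf, 3 Pdia6, 2 Herpud1 and 2 Sel1l UMIs. The first EYFP- cell had 46 Hsp90b1, 28 Xbp1, 22 Hspa5, 15 Calr, 15 Herpud1, 14 Manf and 13 Pdia4 UMIs, and 3 each of Pdia6, Sdf2l1 and Sel1l. The second EYFP- cell had 84 Hsp90b1, 29 Hspa5, 29 Xbp1, 25 Calr, 19 Manf, 18 Pdia6, 16 Pdia4, 15 Sdf2l1, 11 Herpud1 and 8 Sel1l UMIs. Hsp90b1 led in all 3 and Xbp1 was second or level with the second. Summed, the EYFP+ cell reached 5638 CPM, above all 46 other EYFP+ B-like cells of at least 2000 UMIs (233 to 5384 CPM, median 1226). The EYFP- cells reached 4301 and 5695 CPM, with 4 and 0 of 102 other EYFP- B-like cells of that depth above them (0 to 4983 CPM, median 1296). For Hspa5, 15 of 46 EYFP+ and 15 and 12 of 102 EYFP- B-like cells stood above the plasma-type cell, whereas for Xbp1 the numbers were 0, 0 and 1.

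**Figure D4:**
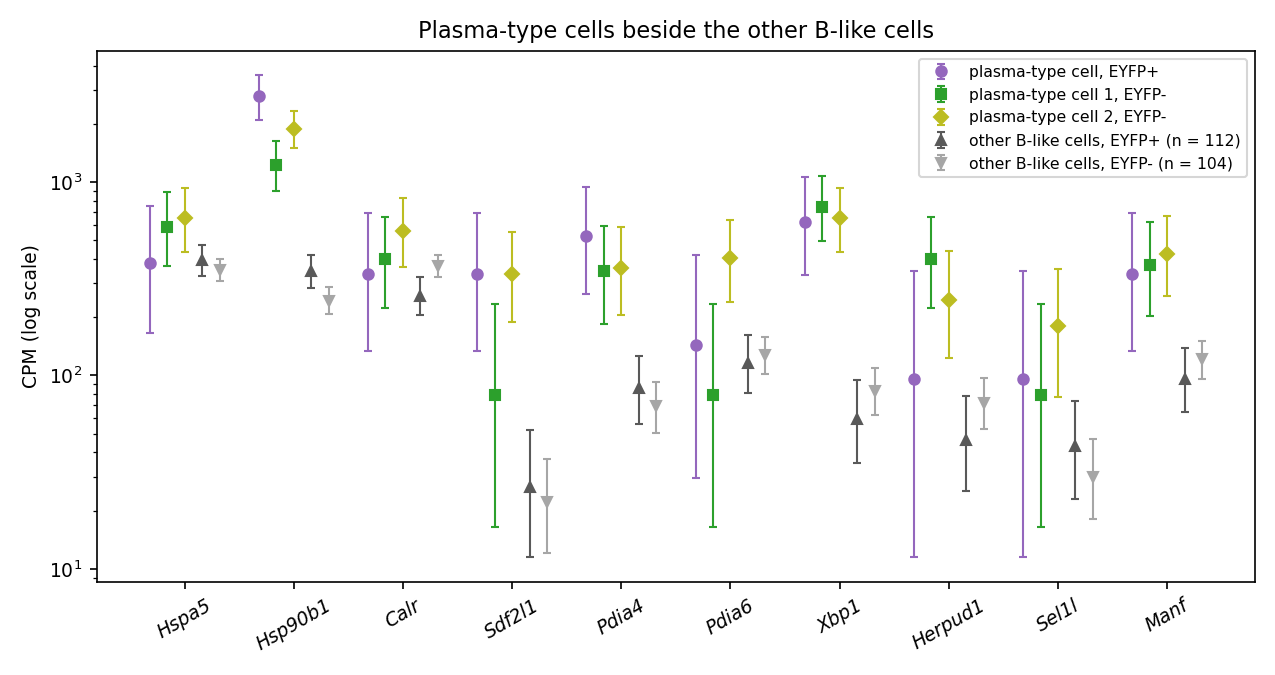
The CPM (log axis) of each gene is drawn for each of the 3 plasma-type cells and for the summed other B-like cells of each library (112 EYFP+, 104 EYFP-), with exact 95% counting intervals. Hsp90b1 is the highest gene in the EYFP+ cell (2771 CPM), and the intervals of Hspa5 in the EYFP+ plasma-type cell (382 CPM) and the EYFP+ B-like cells (395 CPM) overlap.

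Other secretory genes were read by the same lists in the EYFP- plasma-type cells. Of 24 translocation, signal peptidase and glycosylation genes 11 were at least 2-fold higher and 3 lower, beside 2.77% and 39.9% of all genes measured, with Ssr4, a subunit of the translocon-associated complex, at 176 UMIs in plasma-type and 119 in other B-like cells, a ratio of 11.4 (9.002–14.5). Of 17 degradation genes 8 were higher and 2 lower, with Derl3 at 19 UMIs in plasma-type and 4 in other B-like cells and Sec61b at a ratio of 2.12 (1.45–3.02). Of 12 other chaperones 6 were higher and 2 lower; Creld2 had 19, Cnpy2 13 and Dnajc3 24 UMIs in plasma-type cells, against 2, 5 and 29 in other B-like cells. Of 13 genes on the isomerase list 4 were higher and 0 lower. They were led by Prdx4, itself no isomerase, with 53 UMIs in plasma-type and 9 in other B-like cells, a ratio of 45.5 (22.2–105). Txndc5 had 90 in plasma-type and 89 in other B-like cells, a ratio of 7.81 (5.76–10.6). Of 6 sensors and factors 0 were higher and 2 lower, and of 10 cytosolic heat shock genes 1 was higher and 5 lower, with Hspa8 at 0.241 (0.137–0.395); these shares of lower genes lie near the 39.9% of all genes that were lower. With immunoglobulin genes and Jchain left out of the totals 2 of the 6 sensors were higher and 0 lower, 5 of the 10 heat shock genes were higher and 1 lower, and Hspa8 was at 0.967. The median log2 ratio was 2.14 for the 10 members, 1.23 for other chaperones, −1.17 for cytosolic heat shock genes and −0.64 for all genes measured. Prdx4, Txndc5, Creld2 and Derl3 were picked after their values were seen.

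The acinar-like and plasma-type values come from different libraries, of different depth and with different RNA filling the totals, so they are given side by side and not compared. Sel1l was 1751 CPM in acinar-like cells and 134 CPM in EYFP- plasma-type cells, and its ratio to the rest was 30.4 for acinar-like and 4.47 for plasma-type cells. Hsp90b1 was 267 CPM in acinar-like and 1580 CPM in EYFP- plasma-type cells, with ratios of 0.572 for acinar-like and 6.48 for plasma-type cells. Xbp1, Herpud1 and Sel1l were at least 2-fold higher in both. Of all genes measured 8.97% were higher in the acinar-like and 2.77% in the plasma-type comparison, and the share higher in both is not given here. Nupr1, Asns and Slc7a11 had 0, 1 and 0 UMIs in the 2 EYFP- plasma-type cells, where 3 UMIs would be 36.5 CPM. Nupr1 also had 0 UMIs in the 104 other EYFP- B-like cells and 14 in the 112 EYFP+ B-like cells. Its absence is thus not particular to plasma-type cells.

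Between libraries the sum of the 10 genes over whole classes was close to level in T-like and B-like cells. In T-like cells they had 614 UMIs (853 CPM) in the EYFP+ library and 2830 (833 CPM) in the EYFP- library, a ratio of 1.02 (0.936–1.12). In B-like cells they had 445 UMIs (1476 CPM) in the EYFP+ library and 948 (1492 CPM) in the EYFP- library, a ratio of 0.989 (0.882–1.11). Of the EYFP+ cells, 146 T-like and 66 B-like ones formed low-UMI clusters that held no EYFP- cell. The T-like sum was 647 CPM in the low-UMI cluster and 901 CPM in the other EYFP+ clusters. For B-like cells these values were 1431 and 1488 CPM. Hspa5 was 169 CPM in low-UMI and 267 CPM in other EYFP+ T-like cells. Lars2 and Gm42418 took 9.95% of EYFP+ and 0.373% of EYFP- B-like UMIs, which lowers the EYFP+ CPM of other genes. The part of this RNA in the ratios between libraries was not tested. No member was 2-fold higher or lower in either class, beside 3.32% of genes higher and 8.48% lower in T-like cells and 5.34% higher and 9.92% lower in B-like cells. Smaller differences lay outside counting error. Hspa5 was 249 CPM in EYFP+ and 193 CPM in EYFP- T-like cells (1.29, 1.09–1.52), and Hsp90b1 was 348 CPM in EYFP+ and 244 CPM in EYFP- B-like cells (1.43, 1.103–1.84). Calr was lower in EYFP+ cells of both classes, 147 CPM in EYFP+ and 196 CPM in EYFP- T-like cells (0.7505, 0.606–0.922) and 259 CPM in EYFP+ and 370 CPM in EYFP- B-like cells (0.699, 0.534–0.907). Sel1l was 29.2 CPM in EYFP+ and 27.7 CPM in EYFP- T-like cells, where acinar marker RNA differed as given above.

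Fibroblast-like cells had a sum of 492 UMIs (2965 CPM) in 64 EYFP+ cells and 154 UMIs (3251 CPM) in 6 EYFP- cells, a ratio of 0.912 (0.759–1.1). Pdia6 was at least 2-fold higher, with 65 UMIs (392 CPM) in EYFP+ and 7 (148 CPM) in EYFP- cells, and Xbp1 at least 2-fold lower, with 30 UMIs (181 CPM) in EYFP+ and 25 (528 CPM) in EYFP- cells, 1 of 10 in each direction beside 14.9% and 18% of genes. Macrophage-like cells had 549 UMIs (2878 CPM) in 27 EYFP+ cells and 234 UMIs (1765 CPM) in 11 EYFP- cells, a ratio of 1.63 (1.40–1.91). Hsp90b1 (2.66), Pdia6 (2.41) and Hspa5 (2.15) were at least 2-fold higher, 3 of 10 beside 16.4% of genes, and 0 lower, beside 12.3%. A single EYFP+ cell of 29659 UMIs held 219 of the 549; it had 1 UMI of Lyz2 and 186 of H2-Aa. Without the top cell of each sum the ratio was 1.24, and the mean over cells gave 0.880.

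Over all kept cells the sum was 5247 UMIs (1911 CPM) in the EYFP+ and 5446 (1121 CPM) in the EYFP- library, a ratio of 1.70 (1.64–1.77). Sel1l (6.38) and Hsp90b1 (2.06) were at least 2-fold higher, 2 of 10 beside 26.8% of genes, and 0 lower beside 8.06%. This ratio also holds the difference in cell types: Rbpjl-led acinar-like cells were 6.51% of EYFP+ and 0 of EYFP- cells, ductal-like cells 25.8% of EYFP+ and 0.362% of EYFP- cells, and T-like cells 26.7% of EYFP+ and 70.3% of EYFP- cells. The single EYFP- acinar-like cell had 7 UMIs of the 10 genes in 5307.

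**Figure D5:**
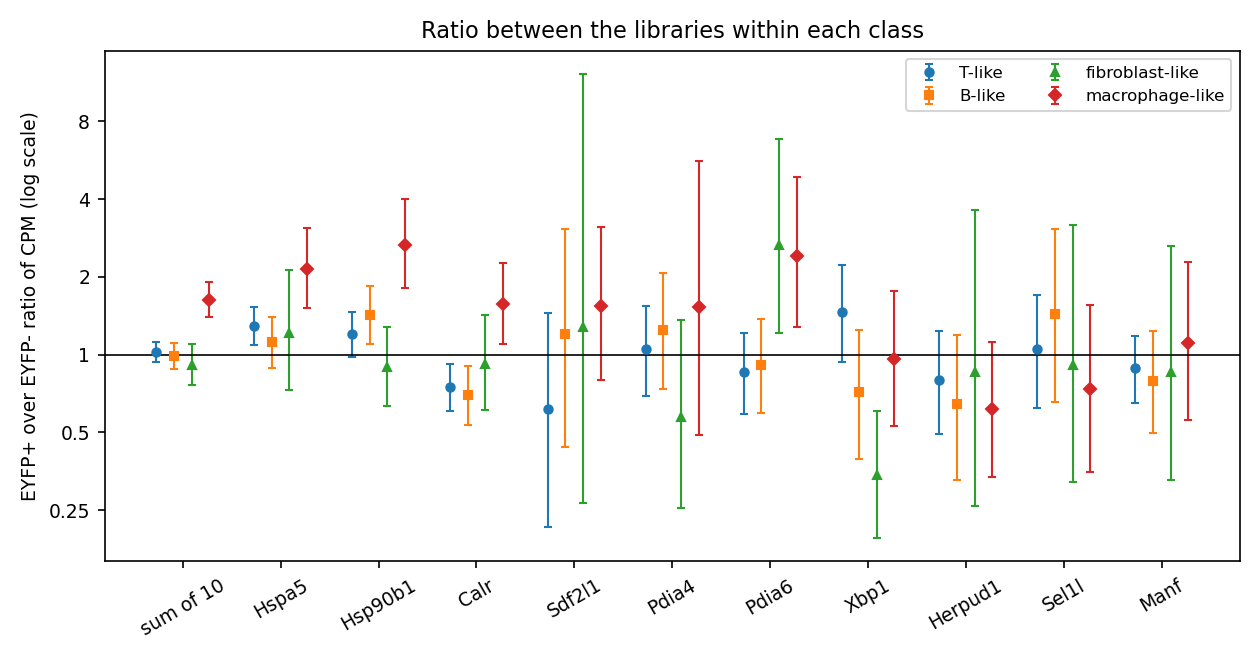
Points give the ratio of EYFP+ over EYFP- CPM (log axis) for the sum and each gene in T-like, B-like, fibroblast-like and macrophage-like cells, with exact 95% intervals that cover counting error only. The sums of T-like (1.02) and B-like cells (0.989) lie at the line of no difference, and that of macrophage-like cells lies above it (1.63).

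The members did not all vary together. Over the 11 sums of classes with at least 20 cells, on the scale log2(CPM + 10), Pearson's r was 0.824 for Xbp1 and Sel1l, 0.754 for Herpud1 and Sel1l and 0.745 for Xbp1 and Herpud1. Calr with Pdia4 (0.853), Hsp90b1 with Pdia6 (0.844), Calr with Manf (0.840), Pdia4 with Manf (0.829) and Hspa5 with Xbp1 (0.767) were also high. Herpud1 and Manf went apart (−0.604). The pairs did not form separate sets, as Pdia6 had 0.660 with Xbp1 and 0.649 with Manf. Among all other genes with at least 50 UMIs, the sum of the 10 was most like Rrbp1 (0.884), a ribosome receptor of the rough ER, then Adap2 (0.878), Sbf2 (0.867), the coatomer gene Copa (0.865) and Gamt (0.865). Ssr1, of the translocon-associated complex, had 0.843. The 11 points share libraries and differ in depth, so these values only describe the sums.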

How the data were processed

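Single-cell RNA was measured in 1 EYFP+ and 1 EYFP- library with the Chromium 5′ kit, per the labels' protocols; which transcript end the reads cover was not taken as known. The authors deposited unnormalised UMI counts per gene and barcode. The submitters' processing notes name Cell Ranger 2.1.0 and GRCh38, whereas the file header gives software version 3.1.0 and the genes carry mouse Ensembl IDs, so the mapping build was not taken as known. Coordinates are those of GENCODE M21 (GRCm38), and promoters come from RefSeq (GRCm38.p6; 9 of 10 members matched).

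Barcodes under 200 genes or above 20% mitochondrial UMIs were left out. Python 3.11.15 with scanpy 1.11.5, numpy 2.4.6, scipy 1.17.1 and matplotlib 3.10.9 was used; cells were clustered on 2000 variable genes, 30 principal components and 15 neighbours (Leiden, resolution 1.0). The clusters were named by marker lists, with the naming rule written after the clusters were seen. Scrublet marked 2 EYFP+ and 5 EYFP- cells, which were kept. Counts were summed per class, with exact Poisson intervals for levels, Clopper-Pearson intervals for shares and conditional binomial intervals for ratios, all covering counting error only. Ratios were given for genes with at least 10 UMIs over both sums. A gene at 0 UMIs in a sum was set to 3 UMIs there and called at 2-fold only where that bound decided it. The ratio, its interval and the 2-fold call were tested on simulated sums with known ratios and counting error only. Filtering, clustering, naming and thinning were not tested in this way.

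The 10 members were named in every class of at least 20 cells, and from other lists up to 4 genes with the most UMIs, with further genes named after their values were seen. The members and lists were chosen with earlier results of these data known. Alternatives were other filters, resolutions, totals, thinning and left-out cells or clusters. No p-value was computed.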

Additional observations from a re-analysis of the deposited data

Results flagged for a closer look

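Calr differed in direction between cell classes. Its ratio of EYFP+ over EYFP- levels was 1.57 in macrophage-like cells, against 0.7505 in T-like and 0.699 in B-like cells, and each interval excluded 1; the difference between the classes was not tested. The macrophage-like value reversed in 3 other settings, given with the processing.

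Barcodes that failed the filters also held the 10 genes. Those with more than 20% mitochondrial UMIs had 560 CPM in the EYFP+ library (336 barcodes, 427 UMIs of the 10 genes) and 906 CPM in the EYFP- library (100 barcodes, 88 UMIs). Those with fewer than 200 genes had 242 CPM in the EYFP+ library (521 barcodes, 121 UMIs) and 35.1 CPM in the EYFP- library (92 barcodes, 12 UMIs). All 4 levels were above the limit that a count of 0 allows, and those of the EYFP+ library were below that of its kept cells (1911 CPM).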

How the results depend on the processing

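No paired analysis was possible because each group is 1 library. Of 894 single-gene values under an alternative, 764 stayed within the counting interval, 116 moved beyond it and 14 reversed; of 124 ratios of sums and counts of members, 85 stayed within it (counts: within 1.5 times), 33 moved beyond it and 6 reversed; the cause was not tested. The acinar-like sum ratio (2.40) was 3.07 outside acinar, mitochondrial and ribosomal genes, 2.68 with a minimum of 500 genes and a maximum of 10% mitochondrial UMIs, 1.79 at resolution 2.0, 3.50 as a mean over cells, 3.26 and 2.76 with cells thinned to 500 and 1000 UMIs, and 2.22 against ductal-like cells. It reversed to 0.708 for cells with at least 5% acinar secretory UMIs (0 members 2-fold higher, Hspa5 0.740), to 0.642 without the Rbpjl-led cluster (1 member, Hspa5 0.696, Xbp1 0.910; outside those genes as well 1.42, with Manf at 1.14) and to 0.921 without Sel1l and Hspa5. Hsp90b1 there reversed to 1.11 as a mean over cells and to 1.21 at 500 UMIs. The Rbpjl-led over enzyme-led ratio (6.15) was 2.60 outside those genes, 7.53 at resolution 2.0, 7.81 without the top cell of each sum and 2.69 without Sel1l and Hspa5.

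The plasma-type ratio (3.39) was 2.38 outside acinar, mitochondrial and ribosomal genes, 13.6 outside immunoglobulin genes, 2.98 with at least 20 Jchain UMIs and 4.26 at 500 UMIs, and 3 and 4 members were 2-fold higher at 500 and 1000 UMIs, where the 500-UMI sum held 5 plasma-type UMIs. Pdia6 reversed to 0.635 without the top cells. Between libraries, T-like cells (1.02) had 1.21 with 500 genes, 1.13 at resolution 2.0 and 0.864 as a mean over cells; B-like cells (0.989) had 0.863 as a mean over cells and 0.805 at 1000 UMIs; fibroblast-like cells (0.912) had 0.576 as a mean over cells, with Pdia6 at 0.619, and 0.646 at 500 UMIs. Macrophage-like cells (1.63) reversed to 0.880 as a mean over cells (Calr 0.746, Pdia6 0.817), 0.658 at 500 UMIs (Hspa5 0.306, Calr 0.815) and 0.759 at 1000 UMIs (Hsp90b1 0.926, Calr 0.444), and had 1.24 without the top cells. All kept cells (1.70) had 1.80 with 500 genes, 1.81 without cells marked by Scrublet, 1.42 as a mean over cells, 1.46 at 500 UMIs and 1.83 in cells of at least 2000 UMIs. No value could be had for plasma-type cells without those marked by Scrublet, for the acinar-like clusters with at least 500 genes, which formed 1 cluster, or for macrophage-like cells at resolution 0.5.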

Other observations

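Single cells of other kinds carried many UMIs of the 10 genes. A ductal-like EYFP+ cell of 53707 UMIs, of which Ppy (pancreatic polypeptide, an islet hormone) took 40.0%, had 143 UMIs of the 10 genes (2663 CPM), 61 of Hsp90b1, 34 of Hspa5 and 0 of Herpud1. An EYFP- cell of 68630 UMIs that clustered with the erythroid-like cells held 254 of the 457 UMIs of that class of 13 cells. It had 67 UMIs of the division gene Mki67, 141 of H2-Aa, 43 of the B cell gene Cd79a and 40 of Jchain. Its erythroid-like name is that of its cluster, and the kind of this cell was not settled. Without it the class had 857 CPM. Of the 2 EYFP- ductal-like cells, 1 held 133 of 150 UMIs of the 10 genes.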
